A study of Mus musculus with 6 samples.

Results

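The RNA measured here came from mouse 3T3 cells, a fibroblast line from Swiss albino embryos that the labels call malignant, grown from 1 puromycin-selected clone with a lentiviral TetOne cassette that encodes human PARG (hPARG) together with the fluorescent protein mClover3. All 6 dishes carried the cassette. Doxycycline at 500 ng/ml was given to 3 of them for 72 h to induce hPARG (hPARG cells), and 3 received none (control). PARG, poly(ADP-ribose) glycohydrolase, removes poly(ADP-ribose) from proteins, and the comparison asked which transcripts differ when it is overproduced. Because doxycycline and hPARG came together, their effects cannot be told apart in these 6 libraries, and p-values measure the spread between dishes of a single clone.

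The transcripts described are those of 8 surface proteins through which fibroblasts meet leukocytes. They were chosen by gene name, with earlier results of these data known, and they are 8 of the 41819 genes in the deposited table. Vcam1 and Icam1 are immunoglobulin-family ligands for leukocyte integrins, and Jam3 (JAM-C) and F11r (JAM-A) are junctional adhesion molecules that also bind such integrins. Cd44 encodes the main receptor for hyaluronan, the matrix polysaccharide on which leukocytes roll and crawl. Cd47, Cd200 and Cd274 encode signals that restrain leukocytes. CD47 binds SIRPα on macrophages, CD200 binds its receptor on myeloid cells, and CD274 (PD-L1) binds PD-1 on T cells. In stromal cells VCAM-1 and ICAM-1 are known targets of NF-kB downstream of TNF and IL-1, and PD-L1 is known to be induced by interferon.

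Total counts per dish lay between 21619908 and 25263818. Scaled to library size (CPM), a floor of 3 counts was 0.119 to 0.139, which covers counting error only. Enough counts for a test were found for 11509 genes (edgeR's filterByExpr), and 5 of the 8 genes were among them (Vcam1, Jam3, Cd44, Cd47 and Cd274). The mouse gene Parg lay between 48.6 and 56.7 CPM in control and between 50.2 and 57.7 CPM in hPARG cells, and the human cassette has no row in the table, so the induction could not be checked in the counts. Of 10 fibroblast markers, 6 exceeded an RPKM of 1, among them Vim, Col1a1, Col1a2 and Pdgfra. Pdgfrb (0.685 RPKM over all dishes), Dcn (0.126) and Lum (0.0141) did not, and Fap was at or under the floor in every dish. None of 10 leukocyte, 8 endothelial and 6 epithelial markers exceeded an RPKM of 1. The summed RPKM of the leukocyte markers was 0.554 to 0.804 in control and 0.5 to 0.763 in hPARG dishes. Most of it came from Cd68, the only one of them that passed the filter, with 11 to 23 counts per dish (0.566 RPKM over all dishes). Cd3e, Adgre1 and Cd48 were among those with 0 counts in all 6 dishes.

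Both dishes numbered 2 lay at the same end of the first principal component, which held 42% of the variance. They lay at 21.6 (control) and 24.7 (hPARG). The remaining 4 dishes were not alike and spread from -3.17 (control dish 1) to -27.4 (control dish 3). Within their groups, the deviation of the dishes numbered 2 rose with the merged exon length of the gene (Spearman's rho of 0.53 and 0.521 across genes). The opposite trend was nearly as strong in control dish 3 (rho = -0.513) and hPARG dish 1 (-0.467). It was weaker in hPARG dish 3 (-0.32) and control dish 1 (-0.252). Deviations within a group of 3 sum to 0. The results are also given without both dishes numbered 2.

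The RefSeq promoter table (GRCm38.p6, 250 bases before and 50 after each start site) held entries for 6 of the 8 genes, all except Vcam1 and Jam3. Upstream sequences are shown for Icam1, which was not detectable above the floor, and for Cd47, which was well expressed and lower in all hPARG dishes. Both are on the plus strand, and the sequences end at the base before the start site. The Icam1 sequence covers chr9:21015690-21015939, and its capitals mark matches on either strand to GGNNNTTCC, a pattern that includes many NF-kB sites. The Cd47 sequence covers chr16:49855404-49855653, and its capitals mark matches on either strand to GGGCGG, the core of the GC box bound by Sp1-family factors. Cd47 had a further entry that begins at 49855411 and is not shown. Both entries lie inside the annotated gene, which starts at 49800533.
Icam1: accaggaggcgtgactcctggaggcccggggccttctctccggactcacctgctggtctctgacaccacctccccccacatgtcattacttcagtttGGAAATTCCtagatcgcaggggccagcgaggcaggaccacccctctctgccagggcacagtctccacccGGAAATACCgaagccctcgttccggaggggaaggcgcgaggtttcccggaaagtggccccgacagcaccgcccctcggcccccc
Cd47: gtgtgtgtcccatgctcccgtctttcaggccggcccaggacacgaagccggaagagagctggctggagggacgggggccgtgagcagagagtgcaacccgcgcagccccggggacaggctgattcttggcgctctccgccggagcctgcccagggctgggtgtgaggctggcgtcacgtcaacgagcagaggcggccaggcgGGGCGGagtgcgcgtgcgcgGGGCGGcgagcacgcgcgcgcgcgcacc

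The stricter form GGAAATTCC, which is one of the matches to GGNNNTTCC in Icam1, occurred in 0.317% of the 32851 promoters in the table, and GGNNNTTCC in 18.5%. Over the whole promoter Icam1 held 2 matches to GGNNNTTCC and F11r held 1, and no match was found for Cd44, Cd47, Cd200 or Cd274. The GC-box core GGGCGG was present in 35.7% of all promoters and in all 6 of these genes, with 3 matches in Cd47. The Cd47 promoter was also the richest in CpG dinucleotides, with 35 in the entry shown and 36 in the other, against a median of 7 over all promoters. Icam1 and F11r held 19 each, Cd274 15, Cd200 8 and Cd44 6. A match to letters is a description of the sequence and not a measured binding site.

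Levels of different genes were compared per gene length, as the authors' RPKM. Cd44 was the most abundant of the 8 transcripts, at 68.1 ± 7.74 RPKM in control and 60.5 ± 4.84 RPKM in hPARG cells (SD, n = 3). Vcam1 came next, with 22.1 ± 3.13 RPKM in control and 16.0 ± 1.11 RPKM in hPARG cells (SD, n = 3). Jam3 had 17.1 ± 2.24 and 15.4 ± 2.47 RPKM (SD, n = 3), and its range over the 6 dishes overlapped that of Vcam1, which was the higher of the pair in 4 of 6 dishes. Cd47 had 11.3 ± 1.11 and 8.45 ± 0.54 RPKM and Cd274 1.71 ± 0.238 and 1.52 ± 0.162 RPKM (SD, n = 3). In RPKM, Cd44 lay above Vcam1, Jam3 above Cd47 and Cd47 above Cd274 in 6 of 6 dishes. Cd47 held 9241 counts over the 6 dishes against 4719 for Jam3. The order of these 2 genes therefore depends on the gene length behind the RPKM. With the merged exon lengths of 3200 (Jam3) and 6276 bases (Cd47), the counts per base of the 2 genes are nearly equal. Their order is therefore not established beyond the deposited RPKM. Cd200, F11r and Icam1 never exceeded 0.0885 RPKM, and their order cannot be read from so few counts. Of each pair of relatives, RNA of one gene (Vcam1, Jam3) was well above the floor, and that of the other (Icam1, F11r) was not detectable above it.

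**Figure D1:**
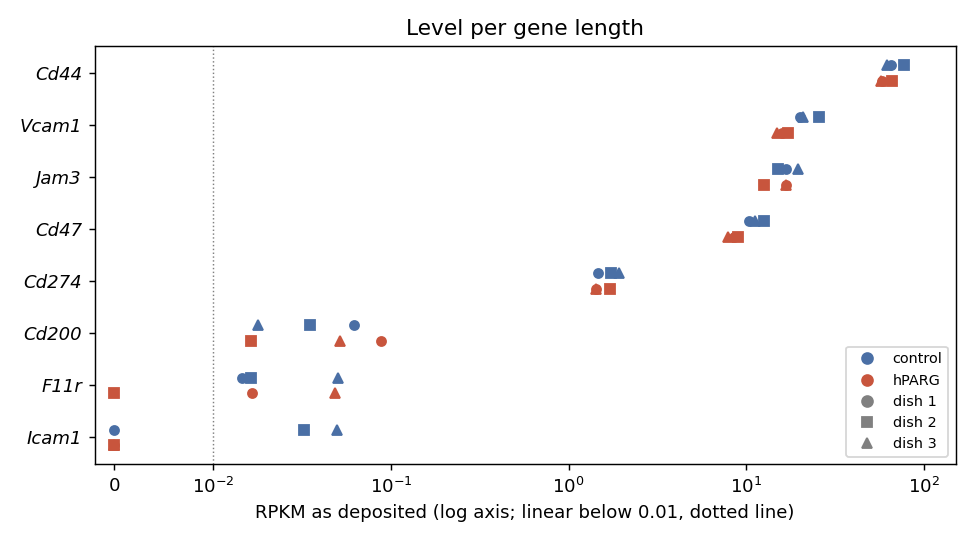
Level of each gene in each dish in RPKM as deposited, on a logarithmic axis that is linear below 0.01 so that dishes at 0 can be drawn (coinciding points cover each other). Blue points are control and red points hPARG dishes, and the shape gives the dish number. Cd44 lies between 57.3 and 76.8 RPKM, Vcam1 and Jam3 overlap, and Cd200, F11r and Icam1 lie under 0.1.

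For the comparison between groups, differences are log2 fold changes (hPARG minus control) with standard errors (SE) and 95% intervals from edgeR's quasi-likelihood test, the false discovery rate (FDR) is adjusted by Benjamini-Hochberg over all 11509 tested genes, and CPM values are TMM-normalized. Of the 5 tested genes of this group, 0 had an FDR under 0.05 in this test, against 0.0869% of all genes. The count was also 0 with DESeq2 (0.452% of all genes) and with edgeR's likelihood ratio test (0.565%). With the dish number as a block in the quasi-likelihood test (replicate block), 2 were called, Vcam1 and Cd47, where 2.87% of all genes were, and the same 2 with a correction for exon length added (2.4%). At an unadjusted p under 0.05, 2 of the 5 were found, Vcam1 and Cd47, both lower in hPARG cells, against 3.95% of all tested genes (2.54% lower). The same 2 genes were those whose groups did not overlap, against 9.62% of all tested genes (6% lower). The median log2 fold change of the 5 was -0.14, and that of all tested genes was 0.00.

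Among the integrin ligands, Vcam1 (ENSMUSG00000027962, GRCm38 chromosome 3, 116109949 to 116129688, minus strand, 10 merged exons) had 2785, 3184 and 2522 counts in control dishes 1 to 3 and 1937, 2280 and 1879 counts in hPARG dishes 1 to 3. In CPM this was 109, 137 and 119 in control and 88.8, 94.0 and 86.2 in hPARG cells. Every hPARG dish lay below every control dish, and dish 2 was the highest within both groups. The means were 122 ± 14.3 and 89.6 ± 3.95 CPM (SD, n = 3), 1.36-fold lower in hPARG cells. The log2 fold change of -0.44 (SE 0.113, 95% interval -0.70 to -0.18) did not pass the threshold in edgeR's quasi-likelihood test (unadjusted p = 0.00493, FDR = 0.713). Without both dishes numbered 2 it was -0.37 (FDR = 0.186), and with any 1 dish left out it lay between -0.51 and -0.34. The FDR over all 16 alternatives lay between 0.00278, with the replicate block, and 1.00, and the lowest without a block was 0.0766, with DESeq2.

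Icam1 (ENSMUSG00000037405, chromosome 9, 21015985 to 21028817, plus strand) had 0, 2 and 3 counts in the control dishes and 0, 0 and 0 in the hPARG dishes. Every dish was therefore at or under the floor, no fold change is given, and a difference was not detectable at this depth. Vcam1, the other classic cytokine-responsive ligand, held 14587 counts over the 6 dishes against 5 for Icam1. Of the merged exon bases of Icam1, 11.7% are shared with Gm47079, an antisense gene that held 0 counts in all dishes. Whether strand was used in counting is not stated, so reads of such pairs cannot be told apart.

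The junctional molecule Jam3 (ENSMUSG00000031990, chromosome 9, 27097384 to 27155421, minus strand) had 34.5, 30.7 and 42.4 CPM in control dishes 1 to 3 and 35.8, 26.1 and 37.1 CPM in hPARG dishes 1 to 3. The groups overlapped widely, and dish 2 was the lowest in both. The log2 fold change was -0.12 (SE 0.173, 95% interval -0.52 to 0.28, FDR = 0.999), and it became 0.02 without control dish 3 and also 0.02 without hPARG dish 2. Without both dishes numbered 2 it was -0.07. Of its merged exon bases 36.2% lie opposite the antisense gene Gm48796, to which 0 counts were assigned. Its relative F11r (ENSMUSG00000038235, chromosome 1, 171437535 to 171464603, plus strand) had 1, 1 and 3 counts in control and 1, 0 and 3 counts in hPARG cells, at or under the floor in every dish.

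Cd44 (ENSMUSG00000005087, chromosome 2, 102811141 to 102901665, minus strand, 19 merged exons) had 395, 453 and 393 CPM in control dishes 1 to 3 and 361, 401 and 367 CPM in hPARG dishes 1 to 3. Dish 2 was again the highest in both groups, and hPARG dish 2 lay above control dishes 1 and 3, so the groups overlapped. The means of 414 ± 34.3 and 376 ± 21.9 CPM (SD, n = 3) gave a log2 fold change of -0.14 (SE 0.106, 95% interval -0.38 to 0.11, FDR = 0.999). Without both dishes numbered 2 the log2 fold change was -0.11, and the remaining groups of 2 dishes no longer overlapped, as was the case for 35.4% of all genes tested in those 4 dishes. The counts are per gene, so the variant exons for which CD44 is known cannot be read from them.

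Of the genes for inhibitory signals, Cd47 (ENSMUSG00000055447, chromosome 16, 49800533 to 49915010, plus strand) had 1756, 1886 and 1660 counts in control dishes 1 to 3 and 1275, 1453 and 1211 counts in hPARG dishes 1 to 3. This corresponded to 68.5, 81.1 and 78.2 CPM against 58.4, 59.9 and 55.6 CPM. All hPARG dishes lay below all control dishes. The means were 76.0 ± 6.60 and 58.0 ± 2.21 CPM (SD, n = 3), 1.31-fold lower in hPARG cells. The log2 fold change of -0.39 (SE 0.103, 95% interval -0.63 to -0.15) did not pass the threshold in edgeR's quasi-likelihood test (unadjusted p = 0.00569, FDR = 0.717). It was -0.36 without both dishes numbered 2 (FDR = 0.297) and between -0.45 and -0.34 with any 1 dish left out, and its FDR over all 16 alternatives lay between 0.0099, with the replicate block, and 1.00. Without a block the lowest was 0.0971, with DESeq2. In bulk RNA, fewer cells that express a gene and less RNA per cell cannot be told apart.

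Cd274 (ENSMUSG00000016496, chromosome 19, 29367455 to 29388095, plus strand) had 145, 153 and 166 counts in control dishes 1 to 3 and 123, 161 and 128 counts in hPARG dishes 1 to 3. The groups overlapped, with means of 6.69 ± 1.09 and 6.05 ± 0.521 CPM (SD, n = 3) and a log2 fold change of -0.14 (SE 0.162, 95% interval -0.52 to 0.23, FDR = 0.999). It was -0.22 without both dishes numbered 2. The antisense gene AC119228.1, which covers 14.1% of its merged exon bases, held 0 counts. Cd200 (ENSMUSG00000022661, chromosome 16, 45382135 to 45409053, minus strand) had 4, 2 and 1 counts in control and 5, 1 and 3 counts in hPARG cells and did not pass the filter.

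**Figure D2:**
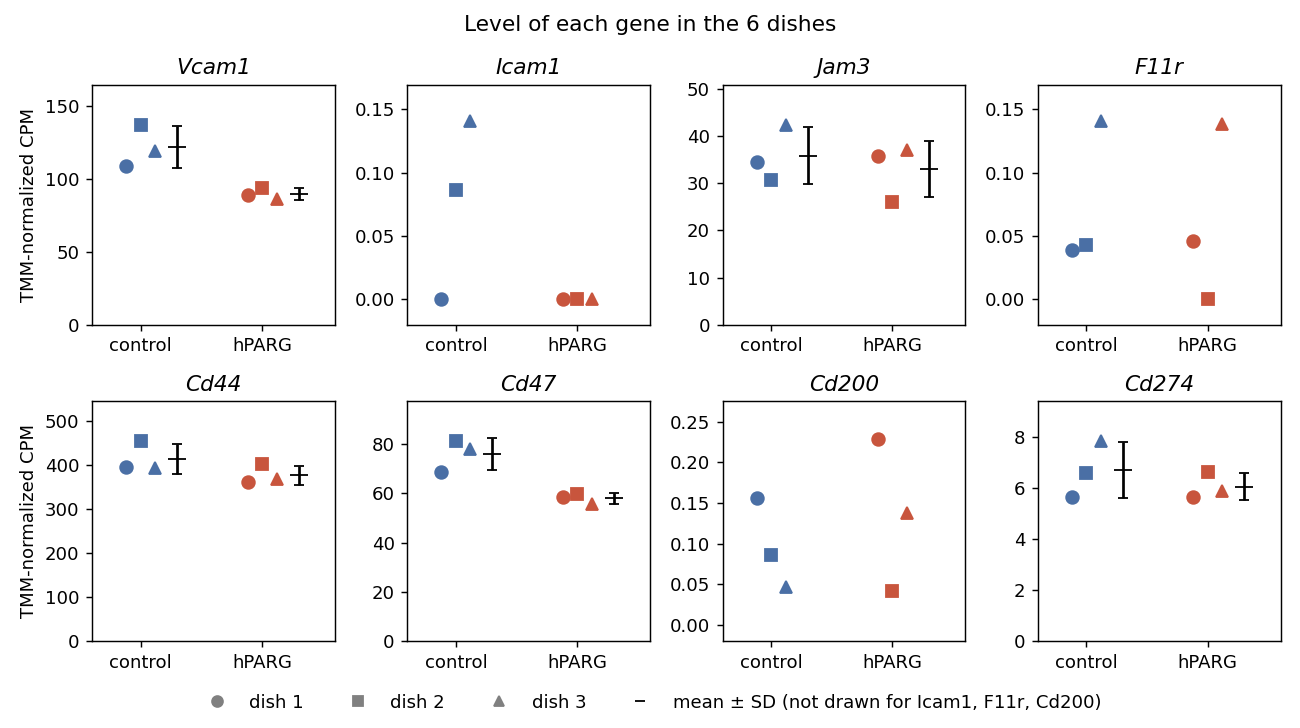
TMM-normalized CPM of the 8 genes in the control (blue) and hPARG (red) dishes, with the dish number as the shape and the mean ± SD (n = 3) in black where a gene passed the filter. Each panel has its own vertical axis. For Vcam1 and Cd47 all hPARG dishes lie below all control dishes, and for Jam3, Cd44 and Cd274 the groups overlap. Icam1, F11r and Cd200 stay under 0.25 CPM.

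**Figure D3:**
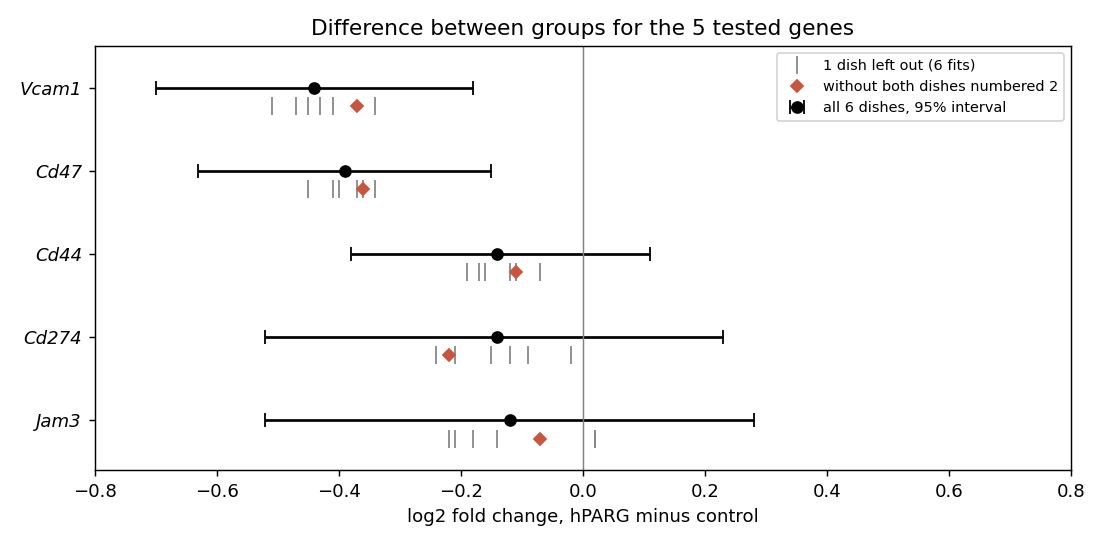
Log2 fold change (hPARG minus control) of the 5 tested genes. Black points and bars are the estimates and 95% intervals of edgeR's quasi-likelihood test with 6 dishes, grey ticks the 6 fits that leave out 1 dish, and red diamonds the fit without both dishes numbered 2. The intervals of Vcam1 (-0.70 to -0.18) and Cd47 (-0.63 to -0.15) lie below 0 before adjustment, and those of the other genes include 0.

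Within the groups the genes with the longest exons followed the dishes numbered 2. Vcam1 (8870 merged exon bases) deviated from its group mean by 0.18 in control dish 2 and 0.07 in hPARG dish 2 on the log2 scale. The deviations of Cd44 (6776 bases) were 0.13 and 0.09, and those of Cd47 (6276 bases) 0.10 and 0.05. Jam3 (3200 bases) deviated the other way, by -0.21 and -0.32, and Cd274 (3622 bases) by -0.01 and 0.14. With a correction for exon length in each dish the log2 fold changes were -0.47 for Vcam1 (FDR = 0.201) and -0.41 for Cd47 (FDR = 0.343) in the same test.

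**Figure D4:**
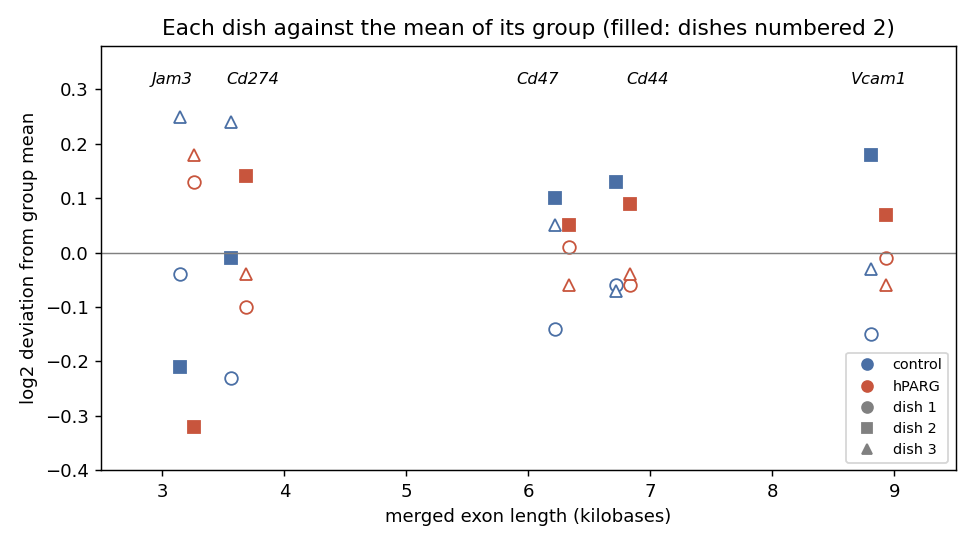
Deviation of each dish from the mean of its group (log2 CPM) for the 5 tested genes, placed by merged exon length in kilobases. Filled squares are the dishes numbered 2 and open symbols the others, with control in blue and hPARG in red. The dishes numbered 2 lie above 0 for Cd47, Cd44 and Vcam1 and below 0 for Jam3.

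Vcam1 and Cd47 had the lowest unadjusted p of the 5 tested genes, and the transcripts most like them over the 6 dishes were listed by Pearson's r of log2 CPM. For Vcam1 these were Etf1 (r = 0.991), Eif3j2 (r = 0.985) and Atad3a (r = 0.984). For Cd47 they were Chka (r = 0.985), Slc11a2 (r = 0.984) and Lemd2 (r = 0.984). Vcam1 and Cd47 themselves correlated with r = 0.983. Of the 11509 tested genes, 59 exceeded r = 0.95 with Vcam1 and 45 with Cd47. Each r rests on 6 dishes and includes the group difference and the deviation of the dishes numbered 2. The source of the high values was not tested. Log2 fold changes were -0.19 for Etf1, -0.10 for Eif3j2 and -0.14 for Atad3a. Those of Chka, Slc11a2 and Lemd2 were -0.36, -0.30 and -0.16.

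Around these 8 genes, lists were examined of their relatives, partners, anchors and cleaving proteases, 85 further genes of which 56 were tested. Of the 56, 0 had an FDR under 0.05 in edgeR's quasi-likelihood test, against 0.0869% of all tested genes. DESeq2 gave 0 as well, and the likelihood ratio test gave 1, Thbs2 (0.565% of all genes). With the replicate block 5 were called, Fn1, Lrp1, Thbs1, Thbs2 and Thy1 (2.87% of all genes). Without a block their log2 fold changes were 0.40, 0.26, 0.40, -0.64 and 0.30, so only Thbs2 was lower in hPARG cells. At an unadjusted p under 0.05 there was 1 higher (Thy1) and 3 were lower (Thbs2, Mmp2 and Tnfaip6), against 1.42% and 2.54% of all tested genes. Groups did not overlap for 3 higher and 2 lower genes of the 56, where 9.62% of all tested genes did not overlap in either direction. The median log2 fold change of the 56 was 0.07.

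The other ligands of leukocyte integrins and selectins were mostly at the floor, as 11 of 17 never exceeded 3 counts in a dish. These included Icam2, Icam4, Pecam1 and Selplg, and the selectins Sele and Selp and the addressins Madcam1 and Glycam1 had 0 counts in all 6 dishes. Fn1, the fibronectin gene, was the most abundant of the list at 98.7 RPKM over all dishes. Its 16619, 25754 and 13449 counts in control and 33723 in hPARG dish 2 against 16938 and 21353 in hPARG dishes 1 and 3 gave a log2 fold change of 0.40 (SE 0.278, FDR = 0.999). Thy1, a fibroblast surface glycoprotein that binds leukocyte integrins, lay at 153 ± 7.66 CPM in the control and 189 ± 14.2 CPM in the hPARG dishes (SD, n = 3), with no overlap between groups and a log2 fold change of 0.30 (SE 0.101, FDR = 0.981). Jam2, a relative of Jam3, had a log2 fold change of 0.99 (FDR = 0.999) at only 0.0765 RPKM, and Cd34 0.27 at 0.127 RPKM.

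Among junction and migration partners 9 of 14 genes in the table were tested. Cd99l2 (24.3 RPKM) and Nectin2 (18.5 RPKM) were the most abundant, with log2 fold changes of 0.20 and -0.01. Those of Cadm1, Alcam and Pvr were 0.41, 0.26 and -0.20 (FDR = 0.999 for all 5). The groups overlapped for all 9 tested genes of this list, where 9.62% of all tested genes did not overlap.

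In the hyaluronan list, which concerns the ligand of CD44, 9 of 12 genes were tested. The synthase Has2 was at or under the floor in every dish, and Has1 had 0.181 RPKM with a log2 fold change of 0.82 (FDR = 0.999). Tnfaip6, which encodes the secreted hyaluronan-binding protein TSG-6, lay at 10.8 ± 2.54 CPM in the control and 7.88 ± 0.616 CPM in the hPARG dishes (SD, n = 3), with a log2 fold change of -0.46 (SE 0.188, unadjusted p = 0.0408, FDR = 0.999 in edgeR's quasi-likelihood test). The hyaluronidases Hyal1 and Hyal2 had log2 fold changes of 0.30 and -0.12, Cemip2 of 0.18, and Hmmr, a further hyaluronan receptor and the most abundant of the list at 29.6 RPKM, of 0.16.

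Thbs1 and Thbs2 encode thrombospondins, ligands of CD47. Thbs2 had 196, 188 and 151 counts in control dishes 1 to 3 and 114, 112 and 106 counts in hPARG dishes 1 to 3. The groups did not overlap, and the means were 7.62 ± 0.486 and 4.90 ± 0.307 CPM (SD, n = 3). Its log2 fold change of -0.64 (SE 0.132) had the lowest FDR of all the lists around the 8 genes but did not pass the threshold in edgeR's quasi-likelihood test (FDR = 0.419). Thbs1 was far more abundant (75.2 against 0.978 RPKM) and had a log2 fold change of 0.40 (SE 0.232, FDR = 0.999). Calr, Lrp1 and Qpctl, the last of which encodes an enzyme that modifies the amino terminus of CD47, had log2 fold changes of 0.04, 0.26 and 0.15. Sirpa, the gene of the CD47 receptor SIRPα, was at 15.8 RPKM over all dishes with a log2 fold change of 0.07 (FDR = 0.999). The CD200 receptor gene Cd200r1 was at or under the floor.

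Of 14 further ligands of immune checkpoints, 6 were tested, and 4 had 0 counts in all dishes, among them Pdcd1lg2 (PD-L2), Cd86 and Icosl. Lgals9, the galectin-9 gene, was the most abundant at 59.8 RPKM. Its means were 97.9 ± 5.78 CPM without and 112 ± 7.32 CPM with hPARG (SD, n = 3), with groups that did not overlap and a log2 fold change of 0.20 (SE 0.0993, FDR = 0.999). The log2 fold changes of Cd276 (B7-H3, 15.4 RPKM), Cd80 and Vsir were 0.16, -0.08 and -0.44 (FDR = 0.999 for each).

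All 12 genes listed for the cytoskeletal anchoring of surface proteins were tested. Their log2 fold changes lay between -0.14 (Ezr, ezrin) and 0.14 (Actn4), with Msn, the moesin gene, at 0.06, Flna at 0.09 and Ank3 at 0.10. All 8 genes for proteases that cleave such surface proteins were tested as well. Adam10, a sheddase of CD44, had a log2 fold change of 0.06, and Adam9, Adam15 and Adam8 had 0.17, 0.09 and 0.07. Mmp2 had 17, 12 and 20 counts in control and 6, 7 and 6 counts in hPARG cells, with a log2 fold change of -1.31 (SE 0.393, unadjusted p = 0.0106, FDR = 0.894 in edgeR's quasi-likelihood test).

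**Figure D5:**
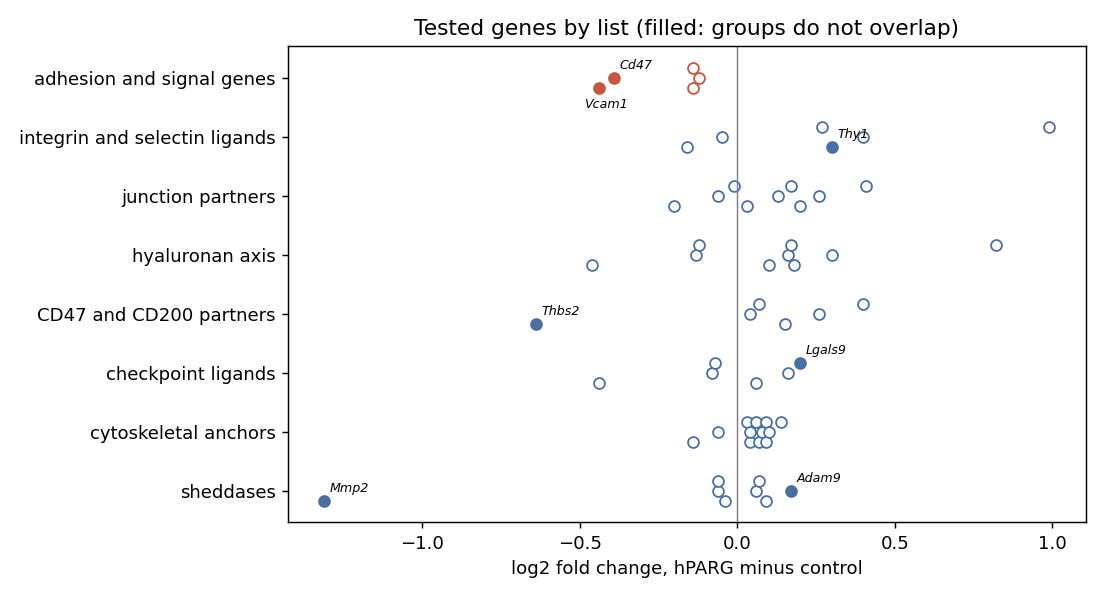
Log2 fold change (hPARG minus control) of the tested genes by list, with the 5 tested genes of the 8 in red in the top row. Filled and named points are genes whose 3 hPARG dishes lie entirely above or below the 3 control dishes. This holds for 9.62% of all tested genes. The cytoskeletal anchors lie between -0.14 and 0.14, and Thbs2 (-0.64) and Mmp2 (-1.31) lie farthest below 0.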

How the data were processed

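Poly(A) RNA of 6 dishes was read in pairs of 150 bp. In CLC Genomics Workbench 12.0 the authors mapped the trimmed reads to GRCm38 (Ensembl release 96) (up to 10 hits per read), and whether strand was used in counting is not given in the sources used here. The authors deposited whole-number counts per gene without normalization, and RPKM values scaled to gene length and a rescaled library total. The deposited CPM, TPM and the authors' own fold changes and p-values were not used. The methods describe 10 cm dishes and the labels wells of a plate, and samples were grouped by their titles.

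Counts were filtered (filterByExpr, minimum count 10), normalized by TMM and tested in edgeR 4.0.16 (R 4.3.3) with the quasi-likelihood test (glmQLFit, glmQLFTest) and no block, adjusted by Benjamini-Hochberg. SE is the absolute log2 fold change over the square root of F. Precision is limited by 3 dishes per group, for which 0.1 is the smallest p of an exact two-sided permutation test. Exons and coordinates are from GENCODE M21 (GRCm38), which held all 41819 identifiers, and Igsf5 of the lists had no row. Alternatives were DESeq2 1.42.0, RLE factors, no scaling beyond library size, no filter, a minimum of 10 counts in all dishes, the likelihood ratio test, the replicate block, an exon-length spline with 4 degrees of freedom, and dishes left out. Only the quasi-likelihood test, with and without the block, was tried on simulated counts. These had independent dishes, no exon-length effect and changes larger than those reported here. The simulation therefore does not bear on differences as small as those of the 5 tested genes.

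The genes and lists were chosen with earlier results of these data known. Genes named from the lists are those called, the up to 4 with the largest log2 fold change and the 2 with the highest RPKM, and for the 2 of the 8 with the lowest p the 3 most correlated genes. Genes at 0 or under the floor, and Sirpa, Dcn and Lum, were named after their values were seen.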

Additional observations from a re-analysis of the deposited data

How the results depend on the processing

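The labels number the dishes of both groups from 1 to 3. The deviations of same-numbered dishes from their group means correlated with r = 0.0963, 0.61 and 0.168 for numbers 1, 2 and 3. Between different numbers r lay between -0.441 and 0.335. Numbers would have been taken as pairs at r above 0.1, which number 1 missed narrowly. Control dish 1 correlated best with hPARG dish 3 (r = 0.207), and the numbers were not taken as pairs. With the replicate number as a block (replicate block), 330 of the 11509 genes (2.87%) passed an FDR of 0.05 in edgeR's quasi-likelihood test in place of 10, and 276 with the exon-length correction as well. Among them were 2 of the 8 genes in both fits, Vcam1 (log2 fold change -0.43, FDR = 0.00278, and -0.47, FDR = 0.0105) and Cd47 (-0.39, FDR = 0.0099, and -0.41, FDR = 0.0209). Of the 85 list genes 5 were called with the block (Fn1, Lrp1, Thbs1, Thbs2 and Thy1), 4 with block and length correction, and 1 with the likelihood ratio test (Thbs2), in place of 0. Of these genes only Thbs2 had a negative log2 fold change without a block. Over all genes, 16 were called with no filter, 25 with the length correction, 52 with DESeq2, 65 with the likelihood ratio test, 40 without both dishes numbered 2, and between 3 and 13 with 1 dish left out, where none of the 8 genes was called. Vcam1, Cd47, Cd44 and Cd274 kept a negative log2 fold change in all 16 alternatives, and Jam3 in 14, with values between -0.22 and 0.02 when a dish was left out. Between 2 and 3 of the 5 tested genes had groups that did not overlap in the 9 alternatives tried, against 9.7% to 10.2% of all genes under other scaling, 14.7% to 23.7% with 1 dish left out and 35.4% without both dishes numbered 2. The cause of these differences was not tested. Depth limits Icam1, F11r and Cd200, whose counts never exceeded 5.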

Other observations

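Of 8 genes for integrin subunits that leukocytes use to bind such ligands, some of which other cells share, 4 exceeded an RPKM of 1 (Itgb1, Itgav, Itgb7 and Itgb2). Itgb2, which encodes the beta chain shared by the leukocyte receptors of ICAM-1, had 141, 121 and 130 counts in control dishes 1 to 3 and 68, 69 and 82 counts in hPARG dishes 1 to 3. The means were 5.61 ± 0.471 and 3.24 ± 0.471 CPM (SD, n = 3) without overlap, and the log2 fold change of -0.79 (SE 0.169, unadjusted p = 0.00171) did not pass the threshold in edgeR's quasi-likelihood test (FDR = 0.436). Its alpha-chain partners Itgal and Itgax were at or under 3 counts in every dish, and the further partner Itgam had between 4 and 8 counts. Itgb7 was at 15.1 RPKM over all dishes with a log2 fold change of 0.17, and Itgb1, the most abundant of these genes at 239 RPKM, had 0.06.

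Of the fibroblast markers, Pdgfra lay at 63.8 ± 5.59 CPM in the control and 48.4 ± 6.33 CPM in the hPARG dishes (SD, n = 3), a log2 fold change of -0.40 (FDR = 0.965 in edgeR's quasi-likelihood test), with no overlap between groups. Col3a1 had the opposite sign, with 56.8 ± 5.03 CPM in the control and 74.6 ± 8.55 CPM in the hPARG dishes (SD, n = 3) and a log2 fold change of 0.39 (FDR = 0.946), and Col1a1 had 0.58 (FDR = 0.999). The groups did not overlap for either of these collagen genes. Of the 7 tested fibroblast markers, 2 were thus higher and 1 lower without overlap, where 9.62% of all tested genes did not overlap in either direction. The vimentin gene Vim, at 1550 RPKM, had 0.08.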
